A study of Homo sapiens with 8 samples.

Results

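The B7 ligands are cell-surface proteins that antigen-presenting cells, and many tumour cells, show to T cells. CD80 and CD86 bind CD28, which lets a T cell respond, and CTLA4, which holds it back, whereas CD274 (PD-L1) and PDCD1LG2 (PD-L2) bind PD-1, the product of PDCD1, and restrain the T cell. CD276 (B7-H3) and VTCN1 (B7-H4) are related ligands that are often found on carcinomas. CD274 has a further place in this work, because BEX2 was picked for study from arrays of another cholangiocarcinoma line with CD274 knockdown, which were not analysed here. The paper describes BEX2 and CD274 protein as mutually exclusive in HuCCT1. With siRNA against either gene it reports no inverse regulation of the other, in data it does not show and without naming the cells. The members CD274, PDCD1LG2, CD276, VTCN1, CD80 and CD86 were selected by the gene name of the array's non-control probes, which gave 6 of the 34809 gene names on the array, through 9 probes.

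RNA of HuCCT1, a human intrahepatic cholangiocarcinoma cell line, was measured on 8 single-colour Agilent arrays. The cells carried 1 of 4 short hairpin RNA vectors, each on 2 arrays. The labels call shControl and shNontarget control and shBEX2-1 and shBEX2-2 BEX2 knockdown. The methods describe retroviral vectors for the BEX2 hairpins, the labels speak of transfection, and all cells, controls included, carried a vector. The BEX2 hairpin targets given in the methods overlap as opposite strands of one stretch of BEX2. Nothing states which of them is in shBEX2-1 and which in shBEX2-2, so the sublines may not have independent target sites. The methods name a hairpin against luciferase as control, and nothing says which control vector that is. Nothing states either that a vector's arrays were separate cultures, so p-values measure the spread between arrays, which may be technical.

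Levels are log2 intensities minus each array's 75th percentile, so 0 is the level of that percentile, and levels of different probes are not set against each other. A probe was tested where at least 4 of the 8 arrays read it well above background, which left 20450 genes, each represented by its brightest probe. All arrays were on 1 slide in 1 scan, with control arrays in one row and knockdown arrays in the other, so that position and group cannot be told apart. The 75th percentile lay between 666 and 838 intensity units on control arrays and between 441 and 631 on knockdown arrays. The shNontarget arrays stood apart, since 34.9% of the genes were over 1 log2 unit apart between them, against 0.557% to 1.76% for the other vectors. BEX2 itself ranged from -3.91 to -2.70 in control cells and from -5.54 to -4.60 in knockdown cells, without overlap. Its log2 fold change was -1.63 (standard error, SE, 0.32, limma adjusted p = 0.0116). It missed the threshold with only shNontarget as control (-1.83, limma adjusted p = 0.0785) and under normexp background correction (-0.45, limma adjusted p = 0.0796). By subline, BEX2 was 3.83-fold lower in shBEX2-1 cells (fitted log2 difference -1.94, limma adjusted p = 0.0335), where neither array read it well above background. It missed the threshold in shBEX2-2 cells (-1.32, limma adjusted p = 0.0812). The epithelial and cholangiocyte markers (KRT7, KRT19, KRT8, KRT18, EPCAM, CDH1, SOX9, CLDN4) were well above background on all 8 arrays. From this list 1 gene, KRT8, was called higher at 1.02 (limma adjusted p = 0.0165), where 6.68% of all genes were called higher.

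The probes that lie in coding sequence are shown first, because the 2 changed ligands were each read by a pair of probes and these sequences say which part of the message was measured. Positions are those of the array's design on hg19. The CD274 probe A_33_P3381513 lies at chr9:5465546-5465605, and its partner A_23_P338479 further 3′ at chr9:5468310-5468369. The PDCD1LG2 probe A_33_P3213707 lies at chr9:5557692-5557751, whereas the design gives no position for A_23_P94412. The CD276 probe A_33_P3217393 lies at chr15:73996699-73996758 and its partner A_33_P3222917 at chr15:74006791-74006850. Each sequence below is 60 bases long and holds at least 1 reading frame without a stop codon.
CD274, A_33_P3381513: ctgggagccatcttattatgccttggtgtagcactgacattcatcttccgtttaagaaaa
PDCD1LG2, A_33_P3213707: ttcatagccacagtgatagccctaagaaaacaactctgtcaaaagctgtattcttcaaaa
PDCD1LG2, A_23_P94412: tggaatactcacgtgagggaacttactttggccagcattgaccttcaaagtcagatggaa
CD276, A_33_P3217393: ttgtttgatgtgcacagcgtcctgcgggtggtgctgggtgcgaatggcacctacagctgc

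CD274 and PDCD1LG2, both ligands of PD-1, were higher in the BEX2-knockdown cells by both of their probes, and the brighter probe of each also passed the test in each subline. CD276 had a level that did not separate the groups, VTCN1 and CD86 varied between arrays of one condition, and CD80 stayed below the mark for well above background everywhere. Of the 5 members tested, 2 passed the threshold (adjusted p under 0.05), both of them higher, where 13.0% of all genes passed in either direction, 6.68% higher and 6.27% lower. PDCD1LG2 met the filter on dim probes only through the knockdown arrays, so this count is partly set by the filter. Its pass in shBEX2-2 cells was lost with no filter (limma adjusted p = 0.0657) and with quantile normalization (limma adjusted p = 0.0546).

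For CD274, the probe A_23_P338479 was well above background on all 8 arrays. Its levels were -1.26 and -1.39 in shControl cells, -0.95 and -0.54 in shNontarget cells, 0.16 and -0.06 in shBEX2-1 cells and 0.49 and 0.41 in shBEX2-2 cells. Every knockdown array was above every control array, the highest control being shNontarget replicate 2 and the lowest knockdown array shBEX2-1 replicate 2. As intensities before scaling, the controls read 304, 320, 387 and 458 units and the knockdown arrays 494, 493, 868 and 839 units, again without overlap. The mean level was -1.04 ± 0.38 (SD, n = 4) in control cells and 0.25 ± 0.25 (SD, n = 4) in knockdown cells. The log2 fold change was 1.29 (SE 0.21, limma adjusted p = 0.00575), which is 2.44-fold. An exact two-sided permutation test over the 70 ways to divide the arrays gave p = 0.0286, the smallest that dividing the arrays allows. It takes the arrays as separate units, although each vector was on 2 of them. In RNA of whole cultures, more cells with CD274 and more CD274 RNA per cell cannot be told apart. Control and knockdown levels also failed to overlap, with knockdown higher, for 11.4% of all genes.

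The second CD274 probe, A_33_P3381513, gave levels of -2.17 and -2.19 in shControl cells, -2.08 and -1.60 in shNontarget cells, -1.09 and -1.27 in shBEX2-1 cells and -0.99 and -0.98 in shBEX2-2 cells. The order of the vectors was that of the first probe, and the levels of the groups did not overlap. As intensities before scaling the groups did overlap. There shNontarget replicate 2 read 219 units and the shBEX2-1 arrays 207 and 213 units. Its log2 fold change was 0.93 (SE 0.17, limma adjusted p = 0.00784 over every probe), or 1.90-fold.

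**Figure D1:**
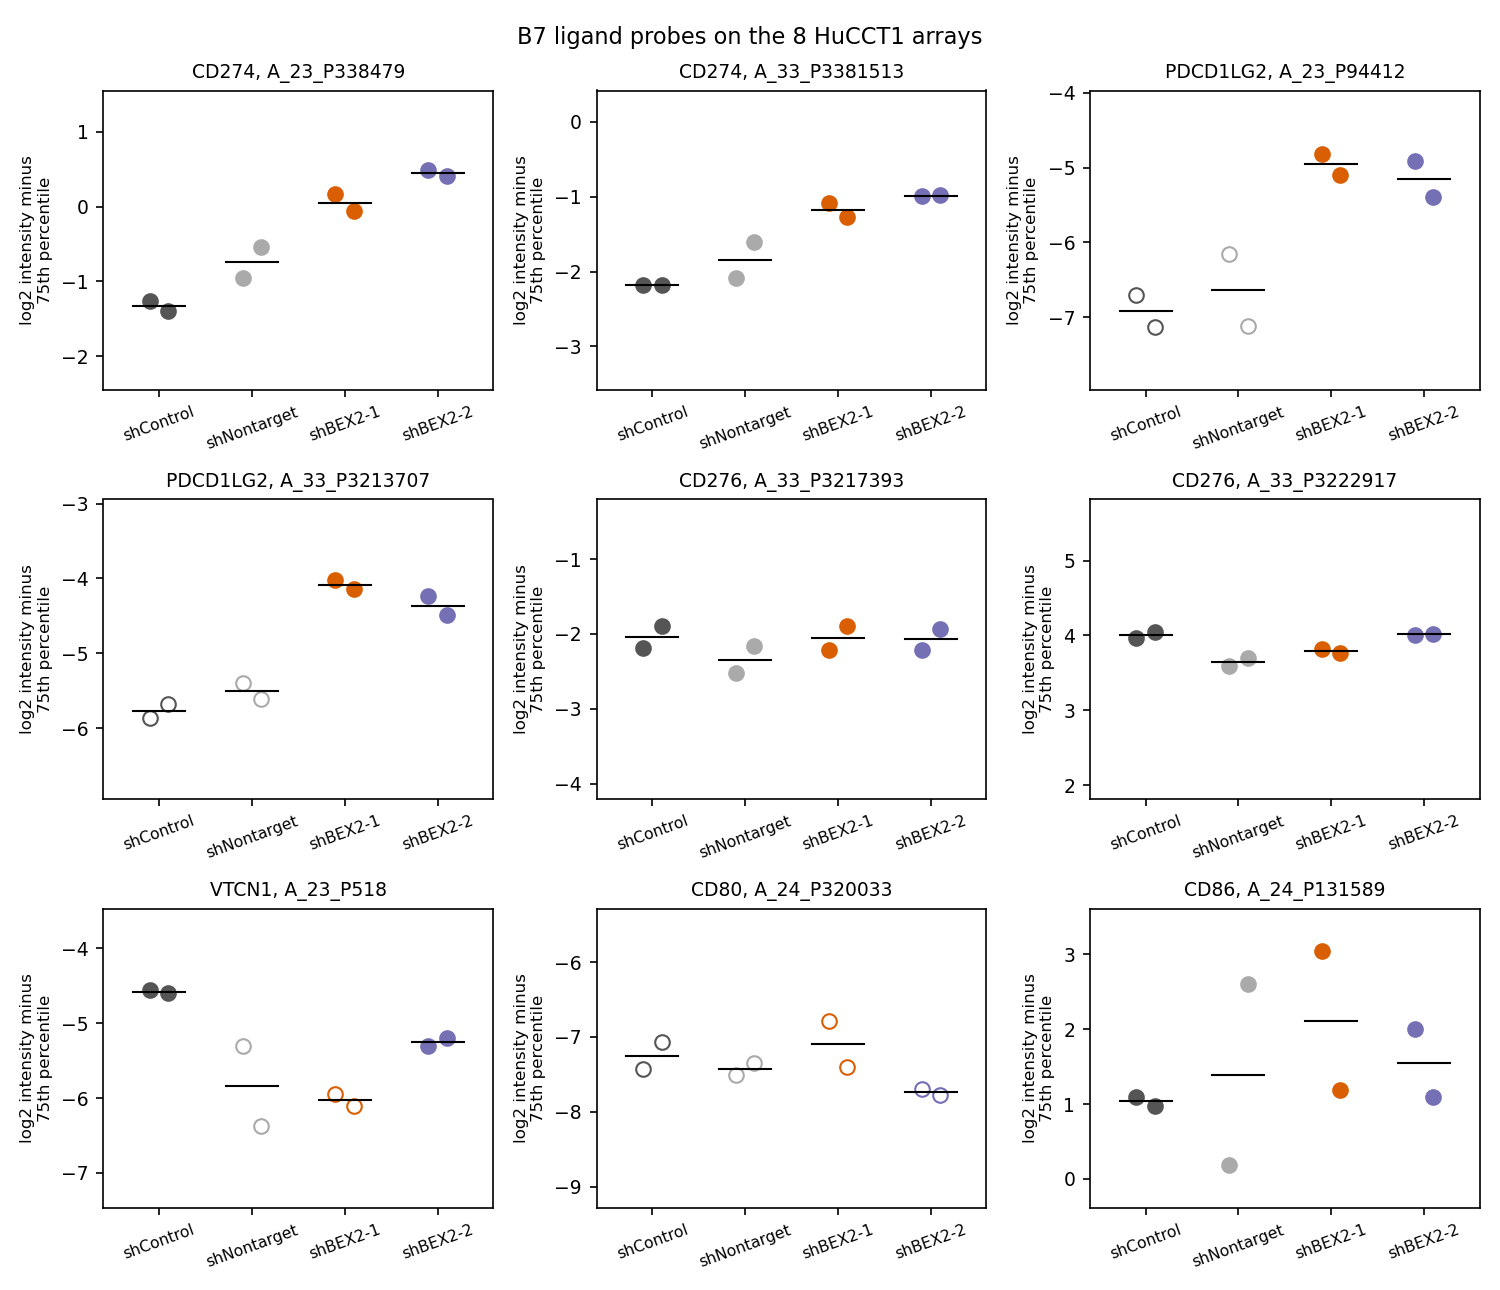
Levels of the 9 B7 ligand probes (y axis, log2 intensity minus the array's 75th percentile, each panel spanning the same number of log2 units) by vector (x axis). Each point is 1 array, filled where at least 0.5 of the probe's spots were well above background, and each line is the mean of 2 arrays. The CD274 and PDCD1LG2 points of the knockdown vectors lie above all control points, and no CD80 point is filled.

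By vector, the mean levels of the first CD274 probe, from lowest to highest, were -1.33 ± 0.09 in shControl, -0.74 ± 0.29 in shNontarget, 0.05 ± 0.16 in shBEX2-1 and 0.45 ± 0.06 in shBEX2-2 cells (SD, n = 2 each). Against both controls together, the log2 difference was 1.09 in shBEX2-1 cells (SE 0.16, limma adjusted p = 0.0165) and 1.49 in shBEX2-2 cells (SE 0.16, limma adjusted p = 0.00488). Over all genes, 3.39% were called higher in shBEX2-1 cells and 4.86% in shBEX2-2 cells. Calls in either direction, 1433 and 1978 genes, moved to between 0 and 10816 in shBEX2-1 cells and between 0 and 11147 in shBEX2-2 cells when single arrays were left out. Neighbours within a condition did not differ past the threshold, and the neighbours shNontarget and shBEX2-1 did not overlap but were not tested as a pair. The control vectors differed by 0.58 (SE 0.19, limma adjusted p = 0.524), in a comparison in which 0% of all genes passed and 1565 genes had an unadjusted p under 0.05. The sublines differed by 0.40 (SE 0.19, limma adjusted p = 0.762), where 0.00978% of all genes passed. The moderated F test of any difference among the vectors had an adjusted p of 0.0129 for CD274, a test that 6.78% of all genes passed.

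The size of the CD274 difference depended on which control was used. With only shControl as control the log2 fold change was 1.58 (limma adjusted p = 0.000550), in a fit that called 6842 of all 20450 genes. With only shNontarget it was 1.00 and missed the threshold (limma adjusted p = 0.0772). It was 1.32 (limma adjusted p = 0.00453) without shNontarget replicate 1 and 1.45 (limma adjusted p = 0.00177) without shNontarget replicate 2. Fits by vector without shNontarget replicate 1 or replicate 2 leave that vector with 1 array, which is assumed to vary like the arrays of the other vectors, and they called a large part of all genes. Between the control vectors 45.2% and 46.3% of all genes passed, between the sublines 14.4% and 14.7%, in shBEX2-1 cells 52.9% and 52.6% and in shBEX2-2 cells 51.5% and 54.5%, so that a pass in them does not set a member apart. In these fits CD274 passed between the control vectors at 0.79 (limma adjusted p = 0.00207) and 0.38 (limma adjusted p = 0.0389), and between the sublines at 0.40 in both (limma adjusted p = 0.0388 and 0.0383). In the other direction, the value of shBEX2-1 against both controls missed the threshold without any 1 of the shControl, shBEX2-1 or shBEX2-2 arrays (0.97 to 1.20), and that of shBEX2-2 did so without either of its own arrays (1.45 and 1.53).

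**Figure D2:**
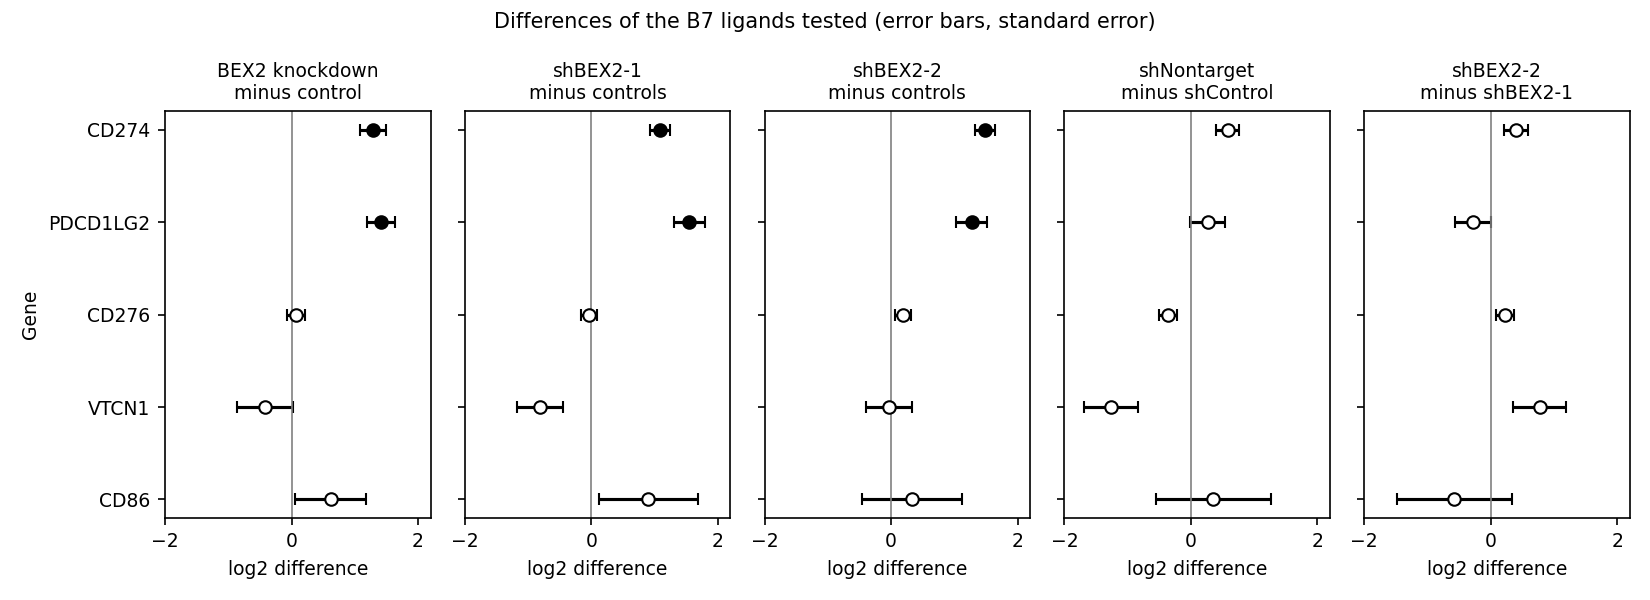
Log2 differences (x axis) of the 5 B7 ligands tested (y axis) in 5 comparisons, with bars of 1 standard error from limma and filled points for an adjusted p under 0.05. CD274 and PDCD1LG2 are filled in the pooled comparison and in each subline, and no point is filled between the control vectors or between the sublines.

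PDCD1LG2, which encodes the other PD-1 ligand and lies next to CD274 on chromosome 9, was faint in all cells. No control array read either of its probes well above background, whereas all 4 knockdown arrays read both so, by at least 0.5 of the spots. It therefore entered the test only through the knockdown arrays. By a looser flag of the software, signal positive and significant against background, both probes were detected on all 8 arrays, by at least 0.5 of the spots. For A_33_P3213707 the levels were -5.86 and -5.68 in shControl cells, -5.39 and -5.61 in shNontarget cells, -4.03 and -4.14 in shBEX2-1 cells and -4.24 and -4.48 in shBEX2-2 cells. The groups did not overlap, and the arrays within each vector lay close together. The intensities were 12.5 to 17.8 units on control arrays and 27.1 to 32.6 units on knockdown arrays.

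PDCD1LG2 was 2.66-fold higher in knockdown cells. A bound was formed from the knockdown mean and the level of every control array, raised to a floor where it lay lower. That floor is the lowest level at which any probe was well above background on the array. Here every control array lay above it, so the bound equals the fitted fold. The fitted log2 fold change was 1.41 (SE 0.22, limma adjusted p = 0.00448). When all probes were tested with no filter on dim ones, the limma adjusted p was 0.0119. The exact two-sided permutation p was 0.0286. In shBEX2-1 cells the log2 difference was 1.55 (limma adjusted p = 0.0192) and in shBEX2-2 cells 1.27 (limma adjusted p = 0.0261, and 0.0657 with no filter), and the sublines differed by -0.28 (SE 0.28, limma adjusted p = 1.00). Without shNontarget replicate 1 the pooled value was 1.49 (limma adjusted p = 0.00178) and without replicate 2 it was 1.42 (limma adjusted p = 0.00491). Each subline's own value missed the threshold without any 1 of the arrays other than shNontarget, at 1.49 to 1.61 in shBEX2-1 cells and 1.15 to 1.39 in shBEX2-2 cells. With only shNontarget as control the pooled value was 1.28 and missed the threshold (limma adjusted p = 0.0719). Under normexp background correction, which adds 50 units to every signal, it was smaller, 0.70 (limma adjusted p = 0.00714), so the fold holds for the deposited signal only.

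The second PDCD1LG2 probe, A_23_P94412, had levels from -7.13 to -6.16 on the control arrays and from -5.39 to -4.81 on the knockdown arrays, again without overlap. It was at least 2.32-fold higher in knockdown cells by the same bound. The fitted log2 fold change was 1.72 (SE 0.32, limma adjusted p = 0.00897 over every probe). On both shControl arrays and shNontarget replicate 2, 0.5 of the spots held a surrogate value set by the software, so this fit partly rests on such values. At 1 of the 2 spots, shNontarget replicate 1 (-5.68) lay just below shBEX2-2 replicate 2 (-5.65). Taken by subline, the probe's differences of 1.82 and 1.63 missed the threshold (limma adjusted p = 0.0524 and 0.0605).

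CD276, a checkpoint ligand widely present on carcinoma cells, was the member whose 2 probes were both read on every array and did not separate the groups. The probe A_33_P3222917 had levels of 3.97 and 4.04 in shControl cells, 3.59 and 3.70 in shNontarget cells, 3.82 and 3.76 in shBEX2-1 cells and 4.01 and 4.02 in shBEX2-2 cells. The knockdown arrays fell inside the range of the controls. The log2 fold change was 0.076 (SE 0.15, limma adjusted p = 0.787), and its sign turned to -0.10 with only shControl as control. Between the control vectors the difference was -0.36 (limma adjusted p = 0.621), and it passed at -0.30 (limma adjusted p = 0.0222) without shNontarget replicate 1 and at -0.42 (limma adjusted p = 0.00583) without replicate 2, with 1 shNontarget array left and 45.2% and 46.3% of all genes passing. Without replicate 2, shBEX2-2 cells also passed at 0.21 (limma adjusted p = 0.0244), with 54.5% of all genes. The probe A_33_P3217393 ranged from -2.52 to -1.89 on control arrays and from -2.22 to -1.89 on knockdown arrays, with a log2 fold change of 0.13 (SE 0.17, limma adjusted p = 0.671 over every probe).

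VTCN1, the B7-H4 ligand, was at the edge of detection. Its probe A_23_P518 (chr1:117686598-117686657) was well above background on both shControl arrays and both shBEX2-2 arrays, by 0.5 of its spots on one of these, and on no shNontarget or shBEX2-1 array. By the looser flag it was detected on all 8 arrays. The levels were -4.56 and -4.59 in shControl cells, -5.30 and -6.37 in shNontarget cells, -5.94 and -6.10 in shBEX2-1 cells and -5.30 and -5.19 in shBEX2-2 cells. The shControl arrays were the highest and shNontarget replicate 2 the lowest, so the conditions overlapped. The log2 fold change was -0.43 (SE 0.44, limma adjusted p = 0.586). Its sign followed the control that was chosen, with -1.06 (limma adjusted p = 0.0407; 6842 of all genes called) against shControl alone and 0.20 (limma adjusted p = 0.861) against shNontarget alone. Against the background of the shNontarget arrays, shControl cells read at least 2.27-fold higher, but the fitted difference, -1.26, missed the threshold (limma adjusted p = 0.555). It passed at -1.80 (limma adjusted p = 0.00564) without shNontarget replicate 1, as did 45.2% of all genes. Without shNontarget replicate 2 the fitted value of shBEX2-1 cells against the controls passed at -1.08 (limma adjusted p = 0.00822), as did 52.6% of all genes.

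CD80 and CD86 are the costimulatory ligands of professional antigen-presenting cells. The CD80 probe A_24_P320033 (chr3:119243684-119243743) did not reach well above background on a single array, and intensities were between 2.88 and 6.82 units. By the looser flag it was detected on 4 of the 8 arrays. Its levels, from -7.50 to -7.07 on control arrays and from -7.78 to -6.79 on knockdown arrays, overlapped. No fold is given for it.

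The CD86 probe A_24_P131589 (chr3:121839246-121839305) was bright on every array, but its replicates disagreed. The levels were 1.10 and 0.97 in shControl cells, 0.18 and 2.60 in shNontarget cells, 3.05 and 1.19 in shBEX2-1 cells and 2.00 and 1.09 in shBEX2-2 cells. The lowest and the second highest value both came from shNontarget cells. The log2 fold change of 0.62 (SE 0.56, limma adjusted p = 0.529) was within the spread between arrays, and the exact two-sided permutation p was 0.371. Without shNontarget replicate 2, the bright control array, the shBEX2-1 value changed from 0.90 (limma adjusted p = 0.577) to 1.51 (limma adjusted p = 0.0363), in a fit that 52.6% of all genes passed.

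The first 30 bases of the CD86 probe are shown with the whole 60 bases of the 3 tested probes whose levels followed it most closely, because all 4 hold a run of alternating G and A, in capitals. The 3 others belong to lincRNA entries of the array and are given by probe ID.
CD86, A_24_P131589: GAGAGAGAGAGAaaaaaGAGAGAtcttgat
A_19_P00331620: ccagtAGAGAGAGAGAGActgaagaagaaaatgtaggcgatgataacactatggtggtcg
A_19_P00329166: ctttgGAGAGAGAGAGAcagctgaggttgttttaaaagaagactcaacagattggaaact
A_19_P00325732: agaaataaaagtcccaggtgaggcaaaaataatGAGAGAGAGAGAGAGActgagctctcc

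The longest such run was 12 bases in the CD86 probe and between 2 and 4 bases in the probes of the other members. Pearson's r over the 8 arrays between CD86 and the 3 probes shown was 0.999, 0.998 and 0.997. Among the other tested probes, 30 held a run of 10 bases or more, and their median r with CD86 was 0.98, with 25 of them (83.3%) over 0.9. Over all 25052 other tested probes the median r was 0.11 and 0.479% were over 0.9. Probes with a run of 8 or 9 bases lay between, with a median r of 0.48 over 94 probes. All these points share the same 8 arrays, and the values are a description.

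The probes with long runs also shared the gaps between replicates. For CD86, shNontarget replicate 2 exceeded replicate 1 by 2.42 on the log2 scale, and the median over the 30 probes with long runs was 2.37, against 0.12 over all. shBEX2-1 replicate 1 exceeded replicate 2 by 1.86 for CD86, by a median of 2.04 over those probes and by 0.019 over all. The part of the run in the CD86 signal was not tested. Of 8 markers of antigen-presenting cells, 4 (ITGAX, CD1C, MS4A1, FCGR3A) failed to rise well above background anywhere. CD14, CSF1R and CD79A were well above background on all 8 arrays, and a probe of ITGAM on 1. The summed intensity of the 8 markers was 1969.8 to 3268 units on control arrays and 1594 to 1994 units on knockdown arrays, before scaling. Of the 3 tested, CD14 was called higher at 0.54 (limma adjusted p = 0.0296). Their part in the CD86 or CD274 signal was not tested. Of 6 T cell markers, CD2 and CD3G were not read well above background anywhere. CD8A was so read on 8 arrays, PTPRC on 7, CD3D on 6 and a probe of CD3E on 3. None of the 3 tested (CD8A, PTPRC, CD3D) passed in limma.

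**Figure D3:**
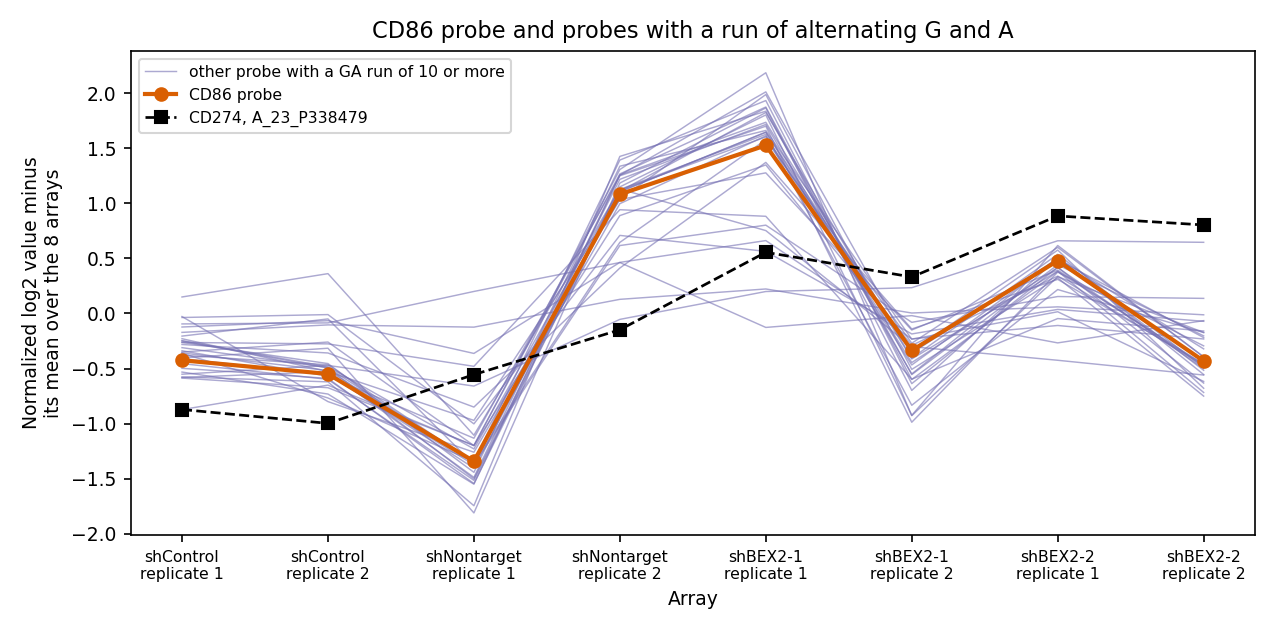
Level of the CD86 probe, of 30 other probes with a run of at least 10 alternating G and A bases and of the CD274 probe A_23_P338479 (y axis, log2 level minus the probe's mean over the 8 arrays) on each array (x axis). The CD86 line and most of the others peak on shNontarget replicate 2 and shBEX2-1 replicate 1, and the CD274 line does not.

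The genes most like each remaining member over the 8 arrays were found by Pearson's r of the levels across all tested genes. They were picked from 20450 genes on the same arrays, and 11.4% of all genes had knockdown levels above every control level. The values are therefore a description. For CD274 the genes were CTPS (r = 0.998), a CTP synthase, DEPDC1 (r = 0.997) and CIT (r = 0.997), a kinase of cytokinesis. Their log2 fold changes were 0.75, 1.51 and 1.40. For PDCD1LG2 they were the transcript ENST00000409703 (r = 0.991), SGOL1 (r = 0.988), which protects centromeric cohesion, and PDE4B (r = 0.988), a cAMP phosphodiesterase, with log2 fold changes of 0.97, 1.94 and 1.64. For CD276 they were PREP (r = 0.976), a prolyl endopeptidase, PRKAA2 (r = 0.961), a catalytic subunit of AMPK, and TGFBR1 (r = 0.954), a TGF-beta receptor, with log2 fold changes of 0.038, 0.26 and 0.041 that missed the threshold. For VTCN1 they were CLDN3 (r = 0.984), a tight junction protein, C6orf15 (r = 0.977) and CDS1 (r = 0.965), with log2 fold changes of -0.51, -0.25 and -0.14 that missed it. VTCN1 and CLDN3 both had their highest levels in shControl cells and low levels in shBEX2-1 cells and on shNontarget replicate 2.

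CD274 and PDCD1LG2 are neighbours in chromosome band 9p24.1, next to the relaxin genes and JAK2. Of the 18 neighbours listed, 15 were tested, and 2 were called higher and 1 lower (20%, against 13.0% of all genes). Their median log2 fold change was -0.18, against 0.027 over all genes tested. The neighbours called higher were INSL4 and RLN1, both relaxin-family hormones. Each was well above background on all 4 knockdown arrays and on 1 control array, so both met the filter through the knockdown arrays. RLN1 had levels of -5.49 and -5.95 in shControl cells, -4.81 and -5.75 in shNontarget cells, -3.85 and -4.17 in shBEX2-1 cells and -3.68 and -3.76 in shBEX2-2 cells. The groups did not overlap, and shNontarget replicate 1 was the only control array well above background. Its log2 fold change was 1.63 (SE 0.28, limma adjusted p = 0.00720), 1.41 (limma adjusted p = 0.0918) with only shNontarget as control and 0.79 (limma adjusted p = 0.00348) under normexp. RLN1 has a near-identical copy, RLN2, at 0.43 (limma adjusted p = 0.434), and a probe may read both. INSL4 had a log2 fold change of 1.66 (SE 0.35, limma adjusted p = 0.0159), and it too was well above background on 1 control array. It was 0.75 (limma adjusted p = 0.00783) under normexp and 1.36 (limma adjusted p = 0.170) with only shNontarget as control. Without either shControl or either shBEX2-2 array it was 1.53 to 1.64 and missed the threshold.

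The neighbours that missed the threshold lay between -0.72 and 0.43. PLGRKT, the gene between RLN1 and CD274 and named C9orf46 on the array, had -0.18 (limma adjusted p = 0.778), and RIC1 on the far side of PDCD1LG2, named KIAA1432, had -0.40 (limma adjusted p = 0.321). JAK2 had -0.15 (SE 0.19, limma adjusted p = 0.666). PPAPDC2, now PLPP6, fell by 0.54 (SE 0.13, limma adjusted p = 0.0291), a call lost without any 1 array other than those of shNontarget.

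**Figure D4:**
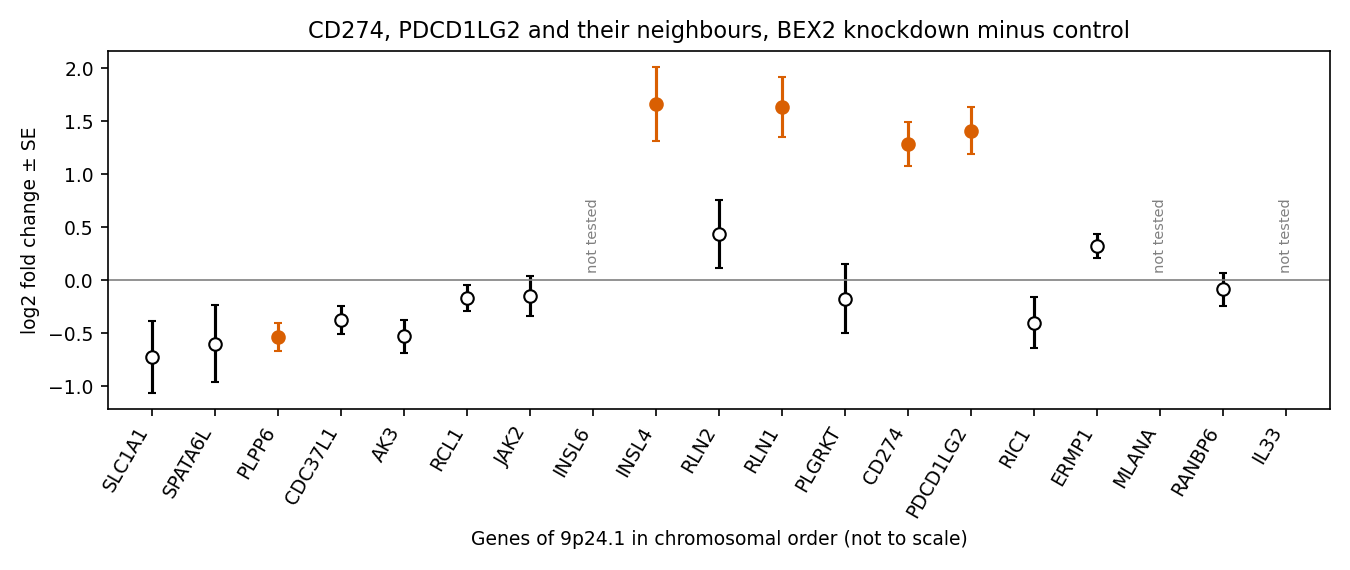
Log2 fold change of BEX2 knockdown against control (y axis, with bars of 1 standard error) for genes of 9p24.1 in chromosomal order (x axis, not to scale). Coloured points have an adjusted p under 0.05. INSL4, RLN1, CD274 and PDCD1LG2 lie between 1.29 and 1.66, and the other genes tested lie between -0.72 and 0.43.

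CD274 is induced by interferon through JAK kinases and IRF1, and also by NF-kappaB and AP-1 factors. Of 22 tested genes in the list of its inducers, 1 was called higher and 1 lower (9.09%, against 13.0% of all genes). The median log2 fold change was -0.15. IRF1 differed by -0.0044 (SE 0.16, limma adjusted p = 0.991). NFKB1 had -0.30 (SE 0.14, limma adjusted p = 0.188), with groups that did not overlap (exact two-sided permutation p = 0.0286). It passed with only shControl as control (-0.48, limma adjusted p = 0.00895), in a fit that called 6842 of all 20450 genes. On unscaled intensities it passed at -0.75 (limma adjusted p = 0.0400), where the median of all genes was itself -0.42. The called genes were FOSL1, an AP-1 subunit, and RELB, an NF-kappaB subunit. FOSL1 rose by 0.77 (SE 0.18, limma adjusted p = 0.0263), a call lost without any 1 array other than those of shNontarget, and at 0.33 on unscaled intensities. RELB fell by 0.71 (SE 0.11, limma adjusted p = 0.00465), from a mean level of 4.43 ± 0.08 (SD, n = 4) to 3.72 ± 0.03 (SD, n = 4). With only shNontarget as control RELB missed the threshold at -0.65 (limma adjusted p = 0.0906).

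The CD274 promoter is shown because interferon is known to induce CD274. PDCD1LG2 is induced by interferon too, but its promoter was not used here. The sequence holds the 250 bases before the RefSeq start on GRCh38.p14, plus strand, chr9:5450292-5450541. Capitals mark, in order, a pair of GAAA blocks 2 bases apart, read on the minus strand, of the kind found in interferon-stimulated response elements, and a TTC and a GAA 3 bases apart, of the kind found in gamma-activated sequences.
CD274 promoter: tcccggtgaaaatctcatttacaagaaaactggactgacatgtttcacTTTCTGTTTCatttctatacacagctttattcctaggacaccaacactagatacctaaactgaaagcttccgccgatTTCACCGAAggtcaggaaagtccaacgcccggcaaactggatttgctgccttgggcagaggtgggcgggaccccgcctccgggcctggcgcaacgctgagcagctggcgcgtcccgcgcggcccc

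The first motif lay 202 to 193 bases and the second 125 to 117 bases before the start. Both strands were searched, and the motifs did not overlap. Of 35116 promoters in the table, 3.02% held the first and 6.57% the second. The promoters of CD276, VTCN1, CD80 and CD86 held neither, and PDCD1LG2 was not searched. The E-box CACGTG, which USF factors bind, was in 6.34% of promoters and in none of the 7 member promoters searched. A match of letters is a description and does not show binding.

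The amount of PD-L1 protein is also set after translation. None of the 16 genes tested from that list passed the threshold in limma, where 13.0% of all genes did (log2 fold changes between -0.41 and 0.24). CMTM6, which keeps PD-L1 at the cell surface, had -0.26 (SE 0.23, limma adjusted p = 0.521). It passed at -0.54 (limma adjusted p = 0.00291) with only shControl as control, in a fit that called 6842 of all 20450 genes. It also passed at -0.51 (limma adjusted p = 0.00720) without shNontarget replicate 2, the array on which it was lowest among the controls. CMTM4, its relative, had 0.023 (SE 0.11, limma adjusted p = 0.920). The arrays measured RNA, and protein was not measured in these samples.

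Among 10 tested members of the wider B7 and butyrophilin families, 8 had values above 0 and none of these passed, while ERMAP, an erythroid butyrophilin relative, fell by 1.17 (SE 0.21, limma adjusted p = 0.00767; -1.03 and 0.112 with only shNontarget as control, and -0.54 and 0.0271 under normexp). The median of that list was 0.48, and 10% of it was called, against 13.0% of all genes. Of the receptors of the B7 ligands, 3 of 5 were tested and none passed. PDCD1, the receptor of CD274 and PDCD1LG2, had 0.40 (limma adjusted p = 0.283), and no array read CTLA4 well above background.

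Among other checkpoint and costimulatory ligands, 1 of 17 tested genes was called higher and 1 lower (11.8%, against 13.0% of all genes). Their median log2 fold change was -0.17. The gene called higher was TNFSF18, the ligand of GITR. It was well above background on all 4 knockdown arrays and on none of the controls, so it entered the test only through the knockdown arrays. It was at least 5.24-fold higher there on the deposited signal (fitted log2 fold change 2.56, SE 0.33, limma adjusted p = 0.00223, and 0.00451 with no filter). Under normexp the fitted value was 0.86 (limma adjusted p = 0.00395). TNFRSF14 (HVEM), the ligand of BTLA, fell by 0.63 (SE 0.14, limma adjusted p = 0.0203), a call lost without any 1 array other than those of shNontarget.

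**Figure D5:**
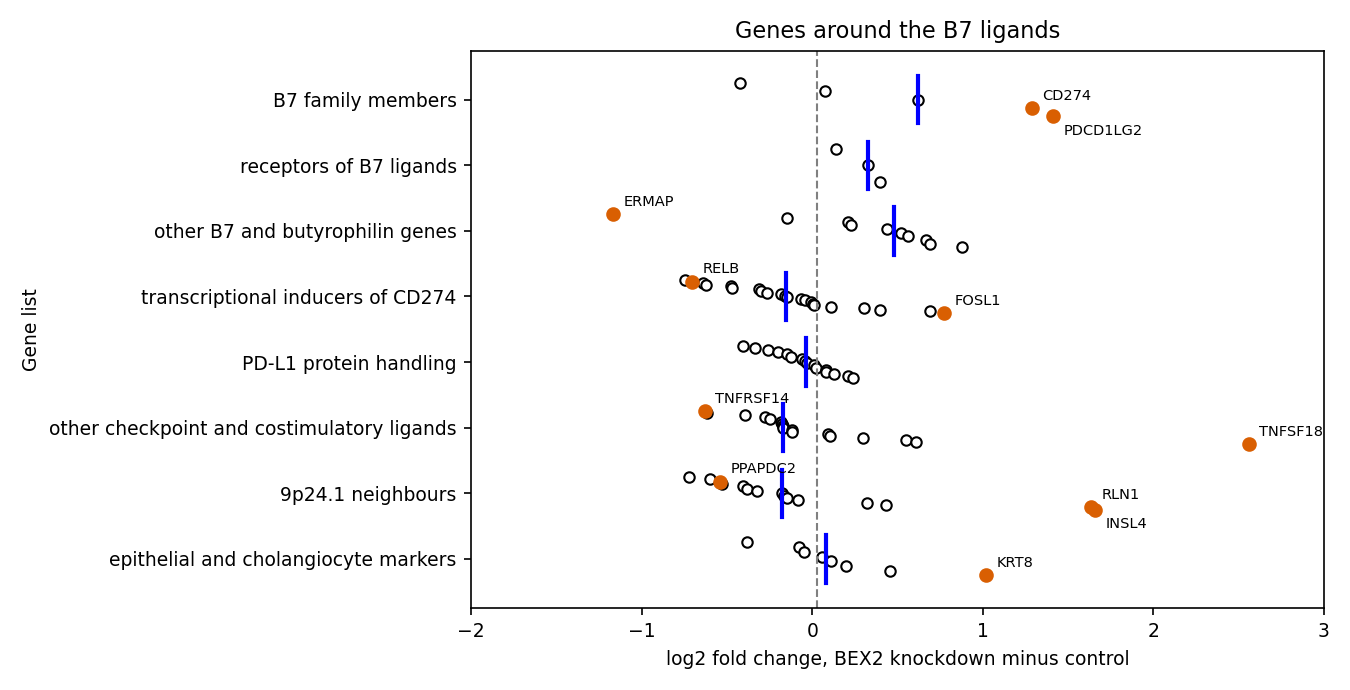
Log2 fold change of BEX2 knockdown against control (x axis) for the tested genes of each list (y axis). Filled, named points have an adjusted p under 0.05, blue bars are list medians and the dashed line is the median of all tested genes, 0.027. CD274 and PDCD1LG2 stand at 1.29 and 1.41, and the genes of PD-L1 protein handling lie between -0.41 and 0.24.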

How the data were processed

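Total RNA of HuCCT1 cells was labelled with Cy3 by the Low Input Quick Amp method and hybridized to Agilent arrays of design 28004. Per the file headers, the authors made the deposited intensity with Feature Extraction 10.7.3.1, which subtracts background and detrends within each array and replaces the lowest signals by surrogate values. The members and the gene lists were chosen with earlier results of these data known. Control spots were left out, log2 intensities were reduced by each array's 75th percentile, spots of one probe were averaged, and a probe counted as detected on an array where at least 0.5 of its spots were well above background. Probes with a flagged value on any array were not fitted. The test was limma 3.58.1 (R 4.3.3; lmFit, then eBayes with trend) over all genes with Benjamini-Hochberg adjustment, in a model of the 2 conditions and in a model of the 4 vectors. It was checked on simulated arrays that varied independently, with the same spread on all arrays for a gene and no difference between vectors of one condition. That check does not cover arrays that share a vector or the wider spread between the shNontarget arrays. Exact permutation tests served for single probes. Named genes were the members, BEX2, preset genes of the inducer and protein handling lists, up to 2 called genes in each direction per list, and the 3 genes most like each member. CD14, CD3D, CD3E, CD79A, CD8A, CSF1R, ITGAM, KRT8, PDCD1, PLGRKT, PTPRC, RIC1 and RLN2 were named after their values were seen. Some genes of the lists are not reported here. The rank product of the methods was not run. Alternatives covered normalization, background, the detection flag, filters, probe choice, controls, a replicate block and single arrays left out. The number of arrays limits the precision. Promoter sequences and gene order are from RefSeq (GRCh38.p14).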

Additional observations from a re-analysis of the deposited data

Results flagged for a closer look

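CMTM6, the surface partner of PD-L1, was read at 1.13 on shNontarget replicate 2, below the other 3 control arrays, which lay between 2.09 and 2.21. That array's gap to the nearest of the others took up 0.892 of the range of the control group. In all, 76 groups of 4 arrays were examined in this way, and chance alone picks out about 1 in 20. Over all genes, 34.9% were over 1 log2 unit apart between the shNontarget arrays.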

How the results depend on the processing

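CD274 and PDCD1LG2 kept their direction in the pooled comparison under every alternative that tested them, and missed the threshold there only with shNontarget as the only control (1.00 and 1.28). With a probe required to be well above background on all 8 arrays, PDCD1LG2, VTCN1, BEX2, TNFSF18, RLN1, INSL4 and PRKAA2 were not tested. Left out one at a time, the arrays gave 1.17 to 1.45 for CD274 and 1.34 to 1.50 for PDCD1LG2, all past the threshold. With a replicate block (same-numbered arrays paired) their adjusted p from limma was 0.0100 and 0.00851 and no member changed its call, although replicate differences of the vectors correlated by -0.063 to 0.26, so the numbers are not shown to pair the arrays. Chosen after seeing the data, unscaled intensities gave 0.84 and 0.97, with a median of all genes of -0.42, and under the rule that all spots of a probe be well above background VTCN1 was not tested. With only shControl as control, values turned to -0.10 for CD276, 0.034 for IRF1, 0.098 for JAK2, -0.079 for PREP, -0.63 for PRKAA2 and -0.20 for TGFBR1, and VTCN1 passed the threshold at -1.06. With only shNontarget they turned to 0.20 for VTCN1, 0.022 for CMTM6, -0.031 for CMTM4, 0.11 for CLDN3, 0.059 for C6orf15 and 0.064 for CDS1. Unscaled, they turned to -0.37 for CD276, -0.42 for CMTM4, -0.41 for PREP, -0.19 for PRKAA2 and -0.41 for TGFBR1. With normexp, VTCN1 turned to 0.26 (0.34 in shBEX2-1 cells, 0.18 in shBEX2-2 cells and -0.17 between the sublines), IRF1 to 0.023 and CMTM4 to -0.052. Quantile normalization gave 0.0013 for IRF1 and -0.019 for CMTM4. Leaving out single arrays gave ranges that crossed 0, of -0.0030 to 0.15 for CD276, -0.0012 to 0.075 for CMTM4, -0.087 to 0.10 for IRF1, -0.24 to 0.033 for JAK2, -0.0051 to 0.078 for PREP, -0.21 to 0.56 for PRKAA2 and -0.063 to 0.15 for TGFBR1. For CD86 they were -0.027 to 1.83 in shBEX2-1 cells, -0.27 to 0.94 in shBEX2-2 cells, -1.50 to 0.36 between the sublines and -0.85 to 1.57 between the control vectors, and for VTCN1 in shBEX2-2 cells -0.31 to 0.23. The number of genes called was 6842 with only shControl, 340 with only shNontarget, 4751 unscaled and 1246 to 4727 without single arrays. With only shNontarget as control, BEX2, RLN1, INSL4, RELB, FOSL1, ERMAP, TNFRSF14, PPAPDC2, CTPS, CIT and ENST00000409703 also missed the threshold, while TNFSF18, DEPDC1, SGOL1 and PDE4B passed it. With only shControl, NFKB1 (-0.48), CMTM6 (-0.54) and CLDN3 (-1.12) passed it. PDCD1LG2 in shBEX2-2 cells missed it with quantile normalization (1.29) and with no filter. The cause of these changes was not tested.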
